A study of Homo sapiens with 6 samples.

Results

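The genes described here are the epidermal growth factor (EGF) family ligands AREG, EREG, HBEGF, TGFA, BTC, EPGN and NRG1 and the ERBB receptors EGFR, ERBB2 and ERBB3. They were chosen by gene symbol, and all 10 were found among the 62754 genes of the deposited table. The cells were HPNE-hTERT, a line of human pancreatic duct that is not malignant and was immortalized with telomerase. They were grown for 4 days with the vehicle DMSO or with FOLFIRINOX, a mixture of 5-fluorouracil (10 µM), SN-38 (25 nM, the active form of irinotecan) and oxaliplatin (5 µM) that, per the labels, was given to induce senescence. Polyadenylated RNA was sequenced in 3 libraries per group, and the column names give each library a P number (P14, P15 or P19) in both groups. Both groups were kept in medium with 10% serum and recombinant human EGF at 20 ng/ml, so the receptors had an added ligand in every culture. All libraries come from 1 cell line, and no label says that they are separate cultures, so p-values measure the spread between these libraries only.

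Ligands of the EGF family are made as membrane-anchored precursors and are released by metalloproteases of the ADAM family. The released ligands bind ERBB receptors, which pair and phosphorylate each other and signal through the RAS-ERK and PI3K-AKT pathways. AREG, TGFA, EPGN and EGF bind EGFR, HBEGF, BTC and EREG bind EGFR and ERBB4, and NRG1 binds ERBB3 and ERBB4. ERBB2 has no known ligand and serves as a pairing partner. In the pancreas, EGFR and TGFA are known for their part in the change of acinar cells towards a ductal state.

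AREG, EREG, EPGN and BTC lie in 1 stretch of chromosome 4, and 2 of the ligand genes, AREG and HBEGF, passed the test of treatment in opposite directions. In GENCODE 29 (GRCh38) the genes span 74308473 to 74315307 for EPGN, 74365143 to 74388751 for EREG and 74445134 to 74455009 for AREG on the plus strand, and 74744759 to 74794686 for BTC on the minus strand. HBEGF spans 140332843 to 140346631 on the minus strand of chromosome 5. The sequences below were taken from RefSeq (GRCh38.p14), where 8 of the members were matched. ERBB3 was not matched, and NRG1 was not searched. They show the bases just before the gene start for AREG, its neighbour EREG, and HBEGF. Capitals mark matches on either strand to the CRE motif TGACGTCA, to the motif TATAAA of a TATA box, and to the SP1 motif, which reads GGGCGG on one strand.
AREG, chr4:74445016-74445133, plus strand: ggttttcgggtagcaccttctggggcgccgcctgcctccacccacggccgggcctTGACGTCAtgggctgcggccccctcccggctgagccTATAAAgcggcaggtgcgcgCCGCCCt
EREG, chr4:74365025-74365142, plus strand: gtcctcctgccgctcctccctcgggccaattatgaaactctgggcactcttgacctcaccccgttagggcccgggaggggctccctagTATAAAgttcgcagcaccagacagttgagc
HBEGF, chr5:140346634-140346803, minus strand: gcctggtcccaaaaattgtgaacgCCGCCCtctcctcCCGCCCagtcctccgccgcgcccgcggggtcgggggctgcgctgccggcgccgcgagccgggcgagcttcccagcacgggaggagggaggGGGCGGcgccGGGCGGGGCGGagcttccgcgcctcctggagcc

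In the 250 bases before the RefSeq start, AREG held 1 CRE match, 65 to 58 bases before the start, 1 TATA match at 29 to 24 bases and 1 SP1 match at 9 to 4 bases. EREG, with no CRE match in that window, held 1 TATA match at 32 to 27 bases. HBEGF held 5 SP1 matches and none of the CRE or TATA letters, and its SP1 matches at 63 to 58 and 58 to 53 bases share a base. Over 27305 promoters of the same length, 1.77% held a CRE match, 11.1% a TATA match and 42.3% an SP1 match. The AP-1 motif TGANTCA, found in 6.60% of promoters, had no match in these 3. These matches describe the letters only, and no factor binding was measured.

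The treatment labels were checked on a pair of genes. MKI67, the Ki-67 proliferation antigen, was at 24.3 to 37.4 normalised reads in the FOLFIRINOX libraries and 9761 to 16160 in vehicle, and CDKN1A, the p21 gene, at 179712 to 234374 and 17018 to 26998 (normalised reads are counts divided by the authors' library size factor). Totals ran from 83981154 to 97762802 reads per library. The share of reads from mitochondrial ribosomal RNA was 1.18% to 2.74% in FOLFIRINOX and 0.552% to 0.864% in vehicle, with P14 highest in each group. The labelled epithelial identity was checked on 10 ductal markers, of which KRT18 was at 6759 to 10594 normalised reads, while KRT19 did not exceed 17.7 in any library and EPCAM was at 0 in all but 1. The 8 mesenchymal markers summed to between 2512020 and 5206570 normalised reads, against 8966 to 14440 for the ductal list. FN1 alone was at 1772700 to 3325800, and KRT18 was most of the ductal sum. These sums were not scaled for gene length. By limma, 2 of 6 tested ductal markers and 6 of 8 mesenchymal markers were lower in FOLFIRINOX, where 12.2% of all tested genes were. The part of that shift in the results below was not tested. Summed markers of acinar, islet, endothelial and leukocyte cells reached at most 49.4, 1.87, 38.2 and 70.0 normalised reads in any library, with PRSS1, INS and SST at 0. In bulk RNA, fewer cells with a transcript and less of it per cell cannot be told apart.

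Amphiregulin RNA rose with FOLFIRINOX and heparin-binding EGF-like growth factor RNA fell. The sum of all ligand RNA per kb of exonic length overlapped between the groups. Of the 10 members, 9 passed the filter on low values (10 or more normalised reads in at least 3 libraries). By limma at adjusted p under 0.05, 1 was called higher (AREG), where 11.4% of all 17951 tested genes were, and 1 lower (HBEGF), where 12.2% were. These shares are near the background. The median log2 difference of the 9 tested members was 0.08, against 0.02 over all tested genes. In either direction 23.6% of all tested genes were called. On the recovered reads, edgeR called 1 member higher and 1 lower, beside 10.1% and 13.3% of the 17951 genes (23.4% in all). DESeq2, run without the filter on low values, called 2 higher, the second being TGFA, and 1 lower. Beside these stand 9.5% and 9.89% (19.4% in all) of the 23247 genes to which DESeq2 gave an adjusted p, a different set of genes. Groups did not overlap for 4 of the 9 tested members, where 39.5% of all tested genes did not overlap. AREG and NRG1 lay higher in FOLFIRINOX (19.9% of genes) and HBEGF and ERBB3 lower (19.6%).

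AREG, a heparin-binding EGFR ligand and part of the senescence-associated secretory set, was at 3693, 2615 and 2120 normalised reads in FOLFIRINOX P14, P15 and P19 and at 1138, 725 and 619.7 in vehicle P14, P15 and P19. Every treated library was above every vehicle library, and P14 was the highest and P19 the lowest of each group. The log2 difference was 1.77 ± 0.26 (SE, 95% interval 1.20 to 2.35, limma adjusted p = 7.2e-04), a 3.42-fold rise on the log2(value + 1) scale. Within P numbers the differences were 1.70, 1.85 and 1.77, closer to each other than the libraries within a group. Leaving out any 1 library gave 1.56 to 2.03 (adjusted p 1.9e-04 to 0.0027).

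HBEGF, the heparin-binding ligand that also serves as the diphtheria toxin receptor, went the other way. It was at 1982, 2005 and 2332 normalised reads in FOLFIRINOX P14, P15 and P19 and at 3822, 3994 and 5021 in vehicle. The groups did not overlap, and P19 was the highest library of each. The log2 difference was −1.02 ± 0.17 (95% interval −1.39 to −0.64, limma adjusted p = 0.0016), a 2.02-fold fall, and the within-P differences were −0.95, −0.99 and −1.11.

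EREG, epiregulin, had the most reads of any ligand gene. It was at 7177, 7287 and 9678 normalised reads in FOLFIRINOX P14, P15 and P19 and at 8808, 10393 and 11741 in vehicle. The groups overlapped, since FOLFIRINOX P19 was above vehicle P14, but each treated library was below the vehicle library of its own P number. The log2 difference was −0.36 ± 0.18 (95% interval −0.75 to 0.03, limma adjusted p = 0.170), and with P number as a replicate block the adjusted p was 0.0086. The difference of its neighbour AREG has the other sign.

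NRG1, neuregulin 1, the ligand of ERBB3 and ERBB4 on chromosome 8, was at 3930, 4127 and 5445 normalised reads in FOLFIRINOX P14, P15 and P19 and at 2640.0, 3665 and 3689 in vehicle. The lowest treated library was above the highest vehicle library. The log2 difference was 0.44 ± 0.19 (95% interval 0.01 to 0.86), with a limma adjusted p of 0.131 and of 0.0043 with the replicate block.

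TGFA, BTC and EPGN were scarce. TGFA, transforming growth factor alpha, had 10, 6 and 16 reads in FOLFIRINOX P14, P15 and P19 and 0 in each vehicle library. With the vehicle libraries set to a floor of 3 reads each, its FOLFIRINOX mean of 10.4 normalised reads was 3.44-fold the mean floor of 3.02. FOLFIRINOX P15 alone was at 5.90, and the fold leaves out this spread, so it is not a firm lower bound. It did not pass the filter, so the test used here gave no value. Without the filter its limma adjusted p was 0.0034, and the authors' deposited table gives an adjusted p of 0.0040.

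BTC, betacellulin, was at 47.3, 27.5 and 24.3 normalised reads in FOLFIRINOX P14, P15 and P19 and at 10.2, 36.1 and 48.6 in vehicle, so the libraries of the 2 groups were intermixed. Its log2 difference was 0.25 ± 0.55 (95% interval −0.96 to 1.47, limma adjusted p = 0.775). EPGN, the epithelial mitogen epigen, was at 45.3, 44.3 and 84.0 against 51.2, 17.0 and 37.4, with groups that overlapped. Its log2 difference was 0.77 ± 0.45 (95% interval −0.21 to 1.75, limma adjusted p = 0.243). Among counts under 50, 72.3% to 74.8% were even numbers, as were the treated TGFA counts. Reads of scarce genes may therefore not be independent.

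**Figure D1:**
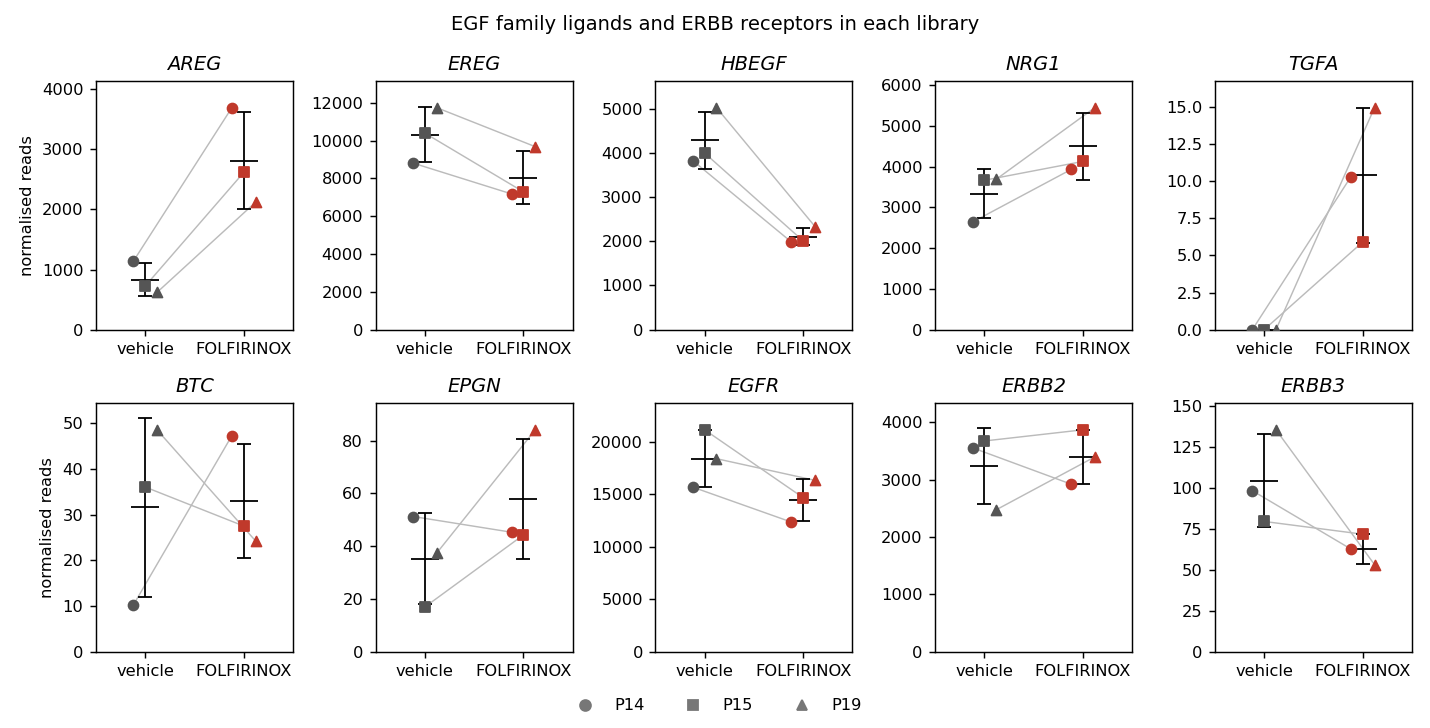
Normalised reads (linear axis from 0) of the 10 members in each library, with vehicle in grey and FOLFIRINOX in red, the symbol giving the P number and a line joining libraries of the same P number. Bars give the mean and SD of 3 libraries, and the treated AREG libraries (2120 to 3693) lie above all vehicle libraries while the treated HBEGF libraries (1982 to 2332) lie below.

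The receptors EGFR, ERBB2 and ERBB3 differed less than AREG and HBEGF. EGFR, the receptor of most of these ligands, was at 12358, 14679 and 16334 normalised reads in FOLFIRINOX P14, P15 and P19 and at 15684, 21148 and 18398 in vehicle. Each treated library was below its vehicle partner, but FOLFIRINOX P19 was above vehicle P14. The log2 difference was −0.35 ± 0.17 (95% interval −0.73 to 0.03), with a limma adjusted p of 0.172 and of 0.0101 with the replicate block.

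ERBB2, the pairing partner without a ligand, was at 2923, 3870.1 and 3397 normalised reads in FOLFIRINOX P14, P15 and P19 and at 3556, 3675 and 2476 in vehicle. The groups were intermixed, and the log2 difference was 0.08 ± 0.20 (95% interval −0.35 to 0.51, limma adjusted p = 0.792). Its within-P differences went both ways, −0.28, 0.07 and 0.46. ERBB2 overlaps MIEN1 (1955 to 3159 normalised reads) and PGAP3 (284 to 591) on the other strand, and since the strand setting of the counting is not given, reads of the shared parts cannot be told apart.

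ERBB3, the neuregulin receptor with a weak kinase, was at 62.8, 71.8 and 53.2 normalised reads in FOLFIRINOX P14, P15 and P19 and at 98.3, 79.6 and 135.5 in vehicle. All treated libraries were below all vehicle libraries. The log2 difference was −0.71 ± 0.29 (95% interval −1.34 to −0.07), with a limma adjusted p of 0.103 and of 0.0395 with the replicate block.

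With the replicate block, 2 of 9 members were called higher (AREG and NRG1), beside 22.3% of all tested genes, and 4 lower (HBEGF, EREG, EGFR and ERBB3), beside 21.8% (44.1% in either direction). EPGN had an adjusted p of 0.0826 in that fit, and ERBB2 and BTC had 0.639 and 0.688. The block leaves the size of each difference as it was and changes the error only.

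The family genes outside the 10 were near the detection limit or scarce. EGF, the founding ligand, was at 41.1, 21.6 and 19.6 normalised reads in FOLFIRINOX P14, P15 and P19 and at 94.2, 65.8 and 107 in vehicle, with no overlap. It fell 3.27-fold (log2 difference −1.71 ± 0.37, limma adjusted p = 0.0071). ERBB4, a receptor of the neuregulins and of HBEGF, BTC and EREG, was at 18.5, 15.7 and 27.1 against 92.2, 73.2 and 121, also with no overlap. It fell 4.51-fold (−2.17 ± 0.35, adjusted p = 0.0013). NRG2 had 4 reads in all FOLFIRINOX libraries and 10 in vehicle, NRG3 had 2 and 0, and NRG4 had 4 and 0, so none of these 3 passed the filter.

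**Figure D2:**
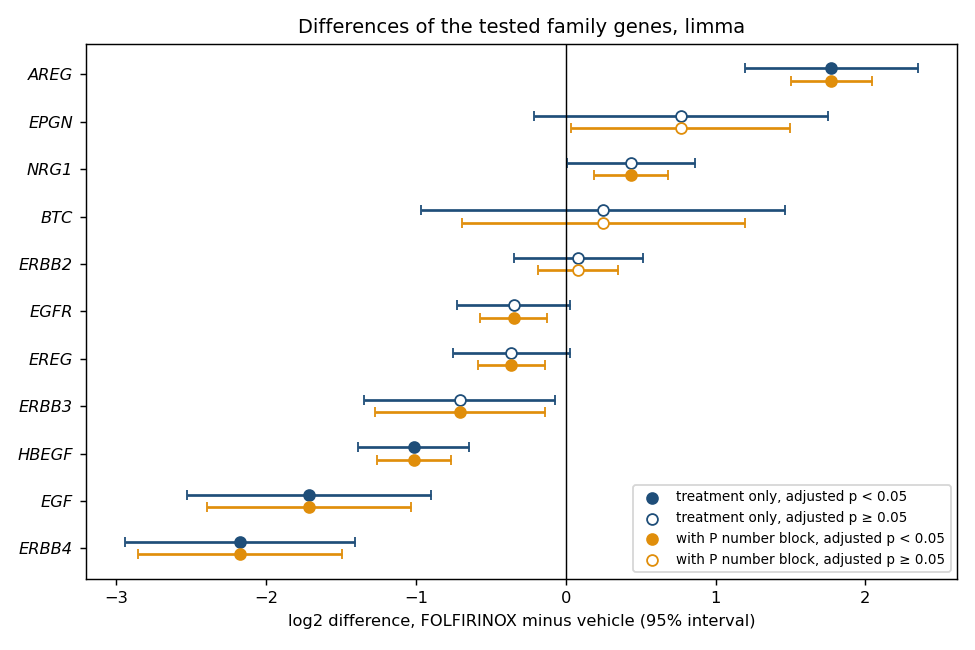
Log2 differences (FOLFIRINOX minus vehicle) with 95% intervals from limma for the 9 tested members and for EGF and ERBB4, in a fit with treatment only (blue) and with P number as a block (orange). Filled points have an adjusted p under 0.05, and AREG at 1.77 and HBEGF at −1.02 are filled in both fits, whereas NRG1, EGFR, EREG and ERBB3 are filled only with the block.

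Levels of different genes were compared per kb of exonic length in GENCODE 29. In vehicle, EREG was highest at 1804 ± 257 normalised reads per kb (mean ± SD, n = 3), then HBEGF at 1418 ± 215, AREG at 502 ± 166 and NRG1 at 294 ± 52.9. In FOLFIRINOX, AREG was at 1705 ± 488 and EREG at 1408 ± 247, a difference smaller than the SD of AREG, above HBEGF at 698 ± 64.8 and NRG1 at 397 ± 72.8. EPGN, EGF, BTC and TGFA were at 31.9 or less per kb in both groups. Among receptors EGFR was highest, at 1155 ± 159.5 in FOLFIRINOX and 1470.3 ± 218 in vehicle, then ERBB2 at 329 ± 45.9 and 314 ± 64.0, and ERBB3 at 6.92 ± 1.03 and 11.6 ± 3.15. In every library, therefore, EGFR and ERBB2 made up nearly all of the receptor RNA.

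AREG took a larger share of ligand RNA in FOLFIRINOX and HBEGF and EREG smaller ones. Shares do not depend on how a library is scaled. AREG made up 49.2%, 40.4% and 29.96% of the summed reads per kb of 11 ligand genes in FOLFIRINOX P14, P15 and P19 and 18.3%, 11.2% and 8.40% in vehicle. HBEGF made up 14.4%, 16.9% and 18.0% in FOLFIRINOX and 33.5%, 33.6% and 37.2% in vehicle. EREG made up 27.6%, 32.4% and 39.4% in FOLFIRINOX and 40.8%, 46.2% and 45.9% in vehicle. For each of these 3 ligands the groups did not overlap per kb of exonic length. The exact two-sided permutation test gave p = 0.1 for each, the smallest that 3 against 3 libraries allow, and 0.283 after Benjamini-Hochberg adjustment over 17 comparisons.

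The sum over the 11 ligands was 4551, 3931 and 4294 normalised reads per kb in FOLFIRINOX P14, P15 and P19 and 3779, 3938 and 4475 in vehicle, groups that overlapped (exact permutation p = 0.6). This holds per kb of exonic length only, and a sum per kb of coding length was not tested. Summed receptor RNA was 1279, 1556 and 1642 per kb in FOLFIRINOX and 1615, 2059.6 and 1734 in vehicle, and overlapped as well (exact permutation p = 0.2). Each treated receptor sum was below the vehicle sum of its own P number, and this test does not use the pairs. EGFR held 77.3% ± 2.07 of receptor RNA in FOLFIRINOX and 81.4% ± 3.64 in vehicle (SD, n = 3, exact permutation p = 0.2). The ranking of ligands rests on the length used: per kb of coding length EREG held 66.6% ± 4.29 and 69.7% ± 1.69, with groups that overlapped (exact permutation p = 0.3), and AREG 13.2% ± 4.61 in FOLFIRINOX and 3.23% ± 1.47 in vehicle.

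**Figure D3:**
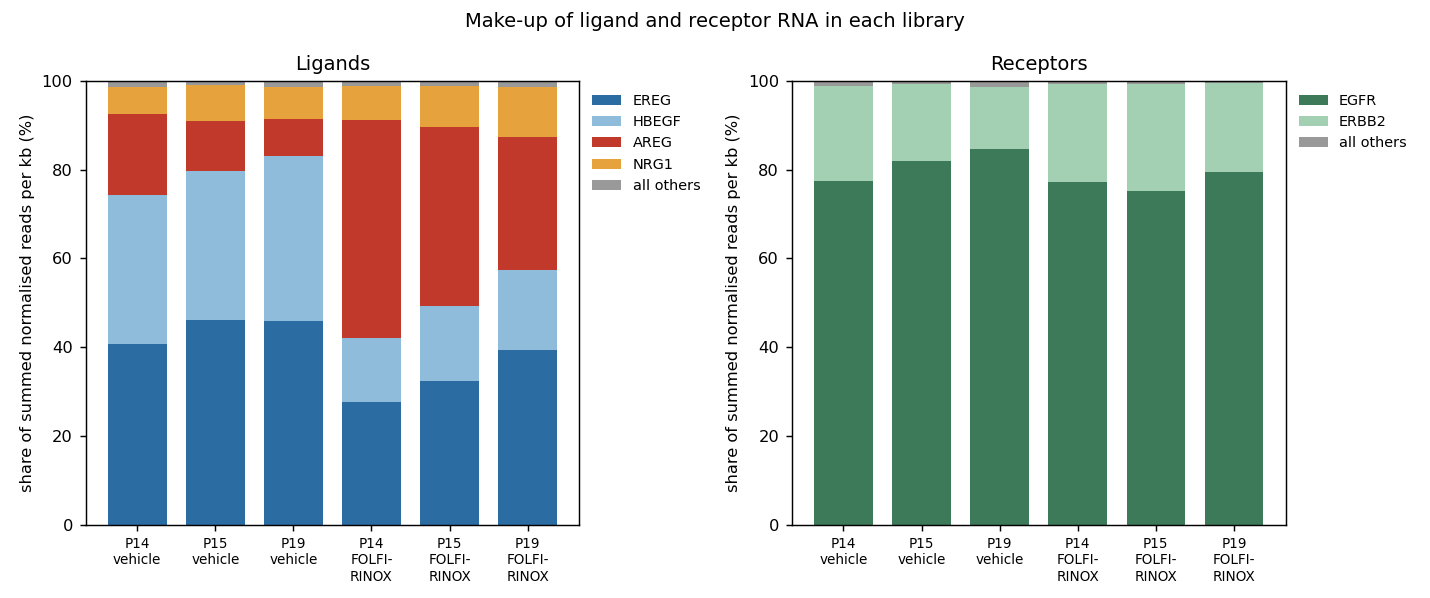
Share of each gene (percent) in the summed normalised reads per kb of exonic length of 11 ligand genes (left) and 4 receptor genes (right), 1 bar per library. The AREG part (red) spans 29.96% to 49.2% in FOLFIRINOX libraries and 8.40% to 18.3% in vehicle, and EGFR is the largest receptor part in every library.

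Genes whose profile over the 6 libraries was most like that of AREG, by Pearson correlation of log2(value + 1) among 11225 other protein-coding genes with a mean of 100 or more, included H2BC12, a histone H2B gene (r = 0.998), and COL4A6, a basement membrane collagen (r = 0.995). H2BC12 was at 3245, 2541 and 1946 normalised reads in FOLFIRINOX P14, P15 and P19 and at 1060.3, 613 and 537 in vehicle, the same order of libraries as AREG. Histone genes are a multigene family, so the reads of H2BC12 are uncertain. The genes most like EGFR were MAML2 (r = 0.989), VCL (r = 0.988) and GSPT1 (r = 0.988). All these libraries share 1 treatment contrast, and 126 genes correlated with AREG above 0.95, so these values are a description.

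Among genes that release the ligands, the share called was near that of all tested genes. Of 15 shedding and processing genes, all tested, 1 rose and 3 fell by limma (26.7% called, beside 23.6% of all tested genes), with a median log2 difference of −0.02. RHBDF2, the iRhom2 protein that brings ADAM17 to the cell surface, was at 86.4, 140 and 111 normalised reads in FOLFIRINOX P14, P15 and P19 and at 30.7, 27.6 and 7.48 in vehicle. It rose 5.64-fold with no overlap (log2 difference 2.50 ± 0.49, limma adjusted p = 0.0040). The metalloproteases ADAM12 and ADAM19 fell, from 169 ± 44.0 to 15.4 ± 10.99 (−3.54 ± 0.44, limma adjusted p = 2.3e-04) and from 5013 ± 1325 to 2222 ± 341 (−1.15 ± 0.21, adjusted p = 0.0032). FURIN, a proprotein convertase named here after its value was seen, was the other member that fell (−0.91 ± 0.19, limma adjusted p = 0.0064, and 0.0721 without both P14 libraries). ADAM17 and ADAM10, the main sheddases of this family, had log2 differences of 0.15 ± 0.16 and 0.36 ± 0.25 (limma adjusted p = 0.560 and 0.341, and 0.345 and 0.0073 with the replicate block). With the block, 2 genes of the list were called higher and 5 lower, where 22.3% and 21.8% of all tested genes were.

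Among 25 tested adaptors and relay kinases, of 26 listed, 2 rose and 0 fell by limma (8% called, beside 23.6% of all tested genes). At unadjusted p under 0.05, 5 were higher and 1 lower by limma. At adjusted p under 0.05, edgeR called 1 higher and 1 lower, and DESeq2 2 and 1. STAT3, a transcription factor downstream of the receptors, rose from 11519 ± 992 to 24445 ± 3704 normalised reads (1.08 ± 0.16, limma adjusted p = 8.5e-04). PTPN11, the SHP2 phosphatase, had 36999 ± 4776 against 25045 ± 5110 (0.58 ± 0.18, limma adjusted p = 0.0422), a call that held without vehicle P19 but was lost on leaving out any of the other libraries (adjusted p up to 0.170). The list's median was −0.07, and with the replicate block 7 were called higher and 4 lower, beside 22.3% and 21.8% of all tested genes.

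Of 23 tested receptor inhibitors and turnover genes, of 25 listed, 1 rose and 5 fell (26.1% called, near the 23.6% of all tested genes), with a median of −0.08. LRIG1, a transmembrane protein that lowers ERBB receptor levels, fell from 4326 ± 904 to 2044 ± 262 normalised reads (−1.07 ± 0.19, limma adjusted p = 0.0026). UBASH3B, a phosphatase that acts on activated receptors, fell from 7452 ± 1389 to 4157 ± 791 (−0.84 ± 0.20, limma adjusted p = 0.0115). LRIG2, a relative of LRIG1, rose from 1469 ± 296 to 2350.4 ± 242 (0.69 ± 0.19, limma adjusted p = 0.0235), a call lost without FOLFIRINOX P15, FOLFIRINOX P19 or vehicle P14 (adjusted p up to 0.0986). The other members that fell, named after their values were seen, were ERRFI1, an inhibitor of the EGFR kinase, SOCS3 and GRB10, with log2 differences of −0.53, −0.59 and −0.60. Each of these 3 calls was lost without FOLFIRINOX P14, FOLFIRINOX P19 or vehicle P15 (limma adjusted p up to 0.153). ERRFI1 was also lost without FOLFIRINOX P15 or vehicle P19 (limma adjusted p = 0.0820 and 0.0565). SOCS3 and GRB10 were also lost without vehicle P14 (limma adjusted p = 0.0949 and 0.0569). Without both P14 libraries 0 genes of the list were called higher and 3 lower, and with the replicate block 4 and 8 (44.1% of all tested genes were called with the block).

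Genes known to respond to ERK moved in both directions. Of 20 genes, all tested, 6 rose and 8 fell by limma (70.0% called, beside 23.6% of all tested genes), and the median was −0.18. The list was written with earlier results of these data known, so its share called is a description and not a test. The ERK phosphatases DUSP4 and DUSP6 rose, from 863 ± 121 to 2361 ± 38.5 normalised reads (1.46 ± 0.17, limma adjusted p = 1.2e-04) and from 973 ± 28.8 to 2414 ± 197 (1.31 ± 0.16, adjusted p = 1.7e-04). IER3, an early response gene, fell from 10968 ± 704 to 4716 ± 524 (−1.22 ± 0.15, limma adjusted p = 2.5e-04), and FOSL1, an AP-1 subunit, from 6224 ± 591 to 3018 ± 151 (−1.04 ± 0.15, adjusted p = 6.8e-04). With the replicate block, 6 were called higher and 10 lower, beside 22.3% and 21.8% of all tested genes. Some of these genes also answer to other pathways, and the list has no common direction here.

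**Figure D4:**
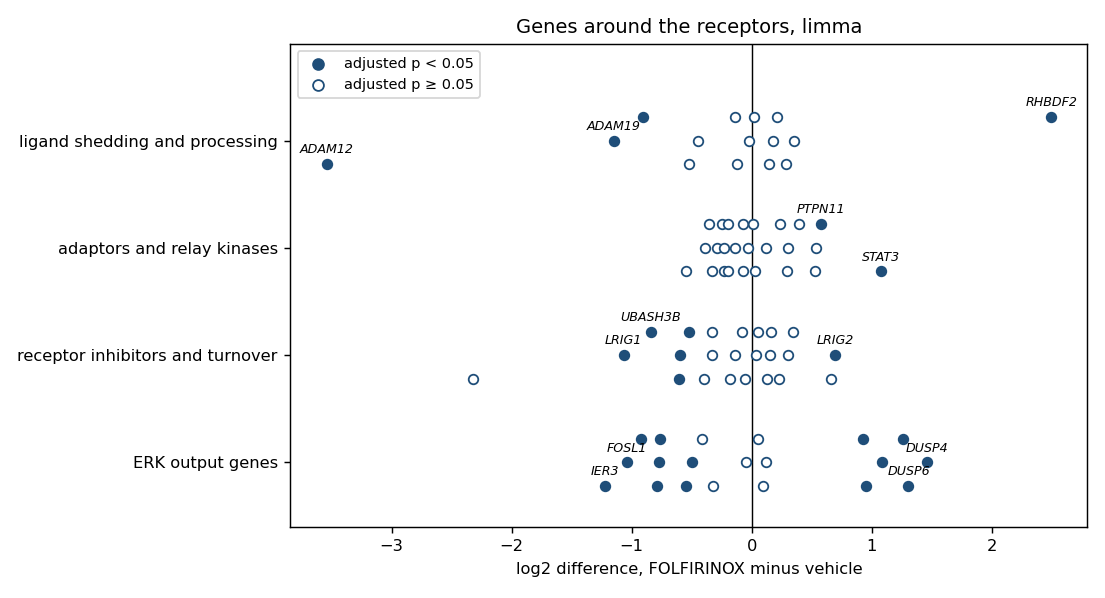
Log2 difference (FOLFIRINOX minus vehicle, limma) of each tested gene in 4 lists of genes around the receptors, 1 point per gene, with small vertical offsets for legibility and filled points for adjusted p under 0.05. Points of the ERK list lie on both sides of 0, from IER3 at −1.22 to DUSP4 at 1.46, and RHBDF2 at 2.50 and ADAM12 at −3.54 lie farthest out in the shedding list.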

How the data were processed

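Polyadenylated RNA of 6 libraries (3 FOLFIRINOX, 3 vehicle) was analysed from the authors' table. The submitters' processing notes name GRCh38, DESeq2, featureCounts 2.0.6, STAR 2.7.11b and FastQC 0.12.1. Annotation release, strand setting and DESeq2 version: not given in the sources used here. The deposited values are a signal per gene and library, counts divided by the authors' size factor. The deposited log2 fold changes, scores and p-values are the authors' own and are quoted only where named. Every value was a whole multiple, within 0.001, of 1 read, which gave back whole reads (100% of values).

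The test was limma 3.58.1 on log2(value + 1), with its trend option, over the 17951 genes that reached 10 in 3 or more libraries, and p-values were adjusted by Benjamini-Hochberg. Folds on this scale understate low genes. The median 95% half-width over tested genes was 0.50 on the log2 scale. The step was tested on simulated data with independent libraries, the same spread setting for every gene and no effect of P number. That simulation cannot show how the test does on libraries that share P numbers. Libraries of the same P number deviated together (r = 0.257, 0.282 and 0.288, all above 0.1), so P numbers, which come from the column names only, were read as pairs. The fit with P number as a block is given where it changes the call of a member, and as counts for the lists of genes around the receptors. Alternatives used edgeR 4.0.16 and DESeq2 1.42.0 on recovered reads, TMM scaling, other pseudocounts (0.5 and 8), no filter or a filter at 50, no trend, and left-out libraries. Shares of reads per kb used exonic lengths and exact permutation tests. Named pathway genes were the 2 largest rises and the 2 largest falls among called genes of each list, where the higher group's mean was at least 50. Members and lists were chosen with earlier results of these data known. One gene that the rule on likeness to AREG names is not reported here. No protein table was used here.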

Additional observations from a re-analysis of the deposited data

How the results depend on the processing

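AREG and HBEGF kept their direction and their call in every alternative run, and EREG, EGFR, NRG1 and ERBB3 kept their direction but were called only with the replicate block (pairing by P number), in limma and in edgeR. With the block in limma, 3995 genes of all tested were higher and 3918 lower (edgeR 3560 and 4207), against 2047 and 2191 without it. The block gave 2 members higher and 4 lower, in edgeR also 2 and 4. In the lists it gave 2 higher and 5 lower for shedding (edgeR 2 and 5), 7 and 4 for adaptors (edgeR 5 and 6), and 4 and 8 for inhibitors (edgeR 3 and 9). For ERK output genes the block in limma gave 6 higher and 10 lower. Without both P14 libraries 1021 genes were higher and 1326 lower, and 0 and 3 inhibitors. Without the low-value filter and by DESeq2, 2 members were higher, the second being TGFA. Adaptors called higher numbered 1 with TMM, no filter, no trend or edgeR, and edgeR and DESeq2 called 1 lower. Without the trend 0 inhibitors were higher and 2 lower. Leaving out each library gave 1201 (without FOLFIRINOX P19) to 2214 genes higher and 1506 to 2156 lower, 1 to 3 adaptors higher, and 0 to 2 inhibitors higher and 2 to 5 lower. BTC changed sign without both P14 libraries (−0.67), and over single left-out libraries it ran from −0.39 to 0.68 and ERBB2 from −0.10 to 0.19, neither called in any fit. Coding lengths from RefSeq, as planned, were not run, and GENCODE 29 was used. With these, chosen after seeing the data as was edgeR with the block, the difference in share was 10.0 points in place of 27.2 for AREG, −3.12 in place of −11.1 for EREG and −9.25 in place of −18.3 for HBEGF. The cause of these changes was not tested. With 0 vehicle reads of TGFA and under 100 normalised reads of BTC and EPGN in any library, depth limits what can be said of these ligands.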
